A study of Bos taurus with 12 samples.

Results

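The 10 genes described here, TEK, FLT1, KDR, ROBO4, PECAM1, CDH5, VWF, LYVE1, STAB2 and ENG, are genes of the endothelial cells that line blood vessels, measured in the liver of dairy cows. They were taken by name, and each had to have a row of its own on the array, that is a row annotated with its symbol and no other. Where a gene had several such rows, the row with the highest mean over all arrays was kept. All 10 genes were found, of 18010 genes with such a row and 26773 transcripts in all. The question was whether their expression differed between cows fed a polyphenol-rich feed component and control cows, and how it varied from cow to cow.

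Liver biopsies had been taken from Holstein cows in week 1 postpartum (day 7), and the RNA of each biopsy was hybridised to 1 Affymetrix Bovine Gene 1.0 ST array. In the first group, 6 cows received a total mixed ration with 1% of its dry matter as an extract meal of grape seed and grape marc, abbreviated GSGME, starting before calving. In the second group, 6 control cows received the same ration with 1% wheat bran instead. Both groups consisted of multiparous cows and a single primiparous cow, which the labels do not tell apart, and no array had a partner in the other group. Values are log2 signals, so that a difference of 1 is a doubling, and cows are named by group and animal number. A biopsy holds all cell types of the liver, so that fewer endothelial cells and less RNA per endothelial cell cannot be told apart.

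The liver is perfused through sinusoids, wide capillaries whose endothelial cells have pores and no tight barrier, and these cells take up waste molecules from the blood. Vascular endothelial growth factors act through the receptors FLT1 and KDR, angiopoietins through the receptor TEK (TIE2), and bone morphogenetic protein 9 from the liver acts through a receptor complex that includes endoglin (ENG). CDH5 (VE-cadherin) and PECAM1 (CD31) hold endothelial cells together, ROBO4 is a receptor that stabilises vessels, and VWF is the adhesive plasma protein that binds platelets. STAB2 and LYVE1 bind hyaluronan, and in the liver both mark the sinusoidal endothelium. In mice and humans VWF is sparse in sinusoids and abundant in larger vessels.

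The labelled tissue was borne out by its main cell type, as all 11 measured hepatocyte markers lay above the background in all 12 arrays. The background was taken as 5.62, the 95th percentile of the mean signals of 717 olfactory receptor transcripts. The arrays had medians of 6.02 to 6.17 and pairwise r of 0.968 to 0.990, with 0 identical pairs. All 10 endothelial genes lay above the background in all 12 arrays, ROBO4 by the smallest margin with a lowest value of 5.67. CDH5 had a second row, with 6.10 ± 0.09 in GSGME cows and 6.16 ± 0.12 in control cows (SD, n = 6 each), which did not follow the row used here (r = -0.20 over 12 cows). ENG had a second row that is also annotated with another gene and was not used. Its difference, 0.16, was close to that of the row used (r = 0.97 over 12 cows).

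None of the 10 endothelial genes passed the criterion of the study for up- or down-regulation by GSGME. At a fold change (FC) beyond 1.3 and an unadjusted p under 0.05 in limma, 0 of 10 were higher, against 1.2% of all transcripts, and 0 of 10 were lower, against 0.624% of all transcripts. With the p threshold alone the counts were again 0 and 0, against 2.68% of all transcripts higher and 3.17% lower. A count of 0 among 10 genes is what such small background shares would mostly give, and says nothing particular about these genes. After Benjamini-Hochberg adjustment 0 of the 26773 transcripts passed 0.05, both in limma (1567 with an unadjusted p under 0.05) and in the methods' t-test (1530). The adjusted p of the 10 genes lay between 0.843 and 0.981 in limma.

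Of the 10 differences, GSGME mean minus control mean, 5 were positive and 5 negative. They lay between -0.14 for ROBO4 and 0.15 for ENG, with a median of 0.02, against -0.01 over all transcripts and 0.01 over transcripts above the median transcript. In all 10 genes the values of the groups overlapped, as they did in all but 58 transcripts (0.217%). The 95% confidence intervals from limma, which draws on the spread of all transcripts, show how large a difference these arrays still allow. For 8 of the 10 genes this interval lay wholly within an FC of 1.3 in either direction, a count not taken with the methods' t-test. The exceptions were LYVE1, whose interval reached an FC of -1.37, and ENG, whose interval reached 1.38. Differences within these intervals are left possible by 6 cows per group.

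**Figure D1:**
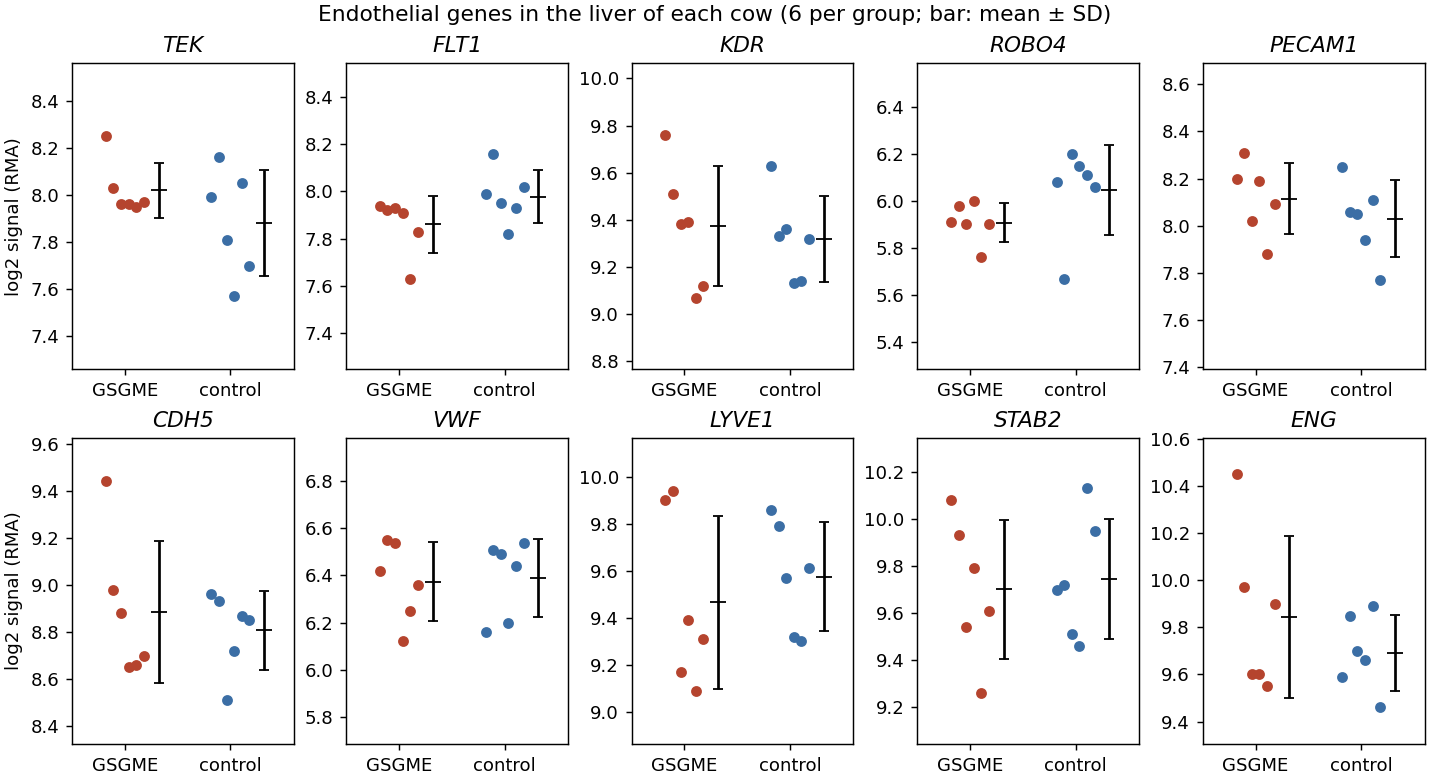
Log2 signal (RMA, vertical axes, a scale per gene) of the 10 endothelial genes in each of 6 GSGME and 6 control cows, with points for cows and a bar for mean ± SD. In every gene the points of the GSGME cows overlap those of the control cows.

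**Figure D2:**
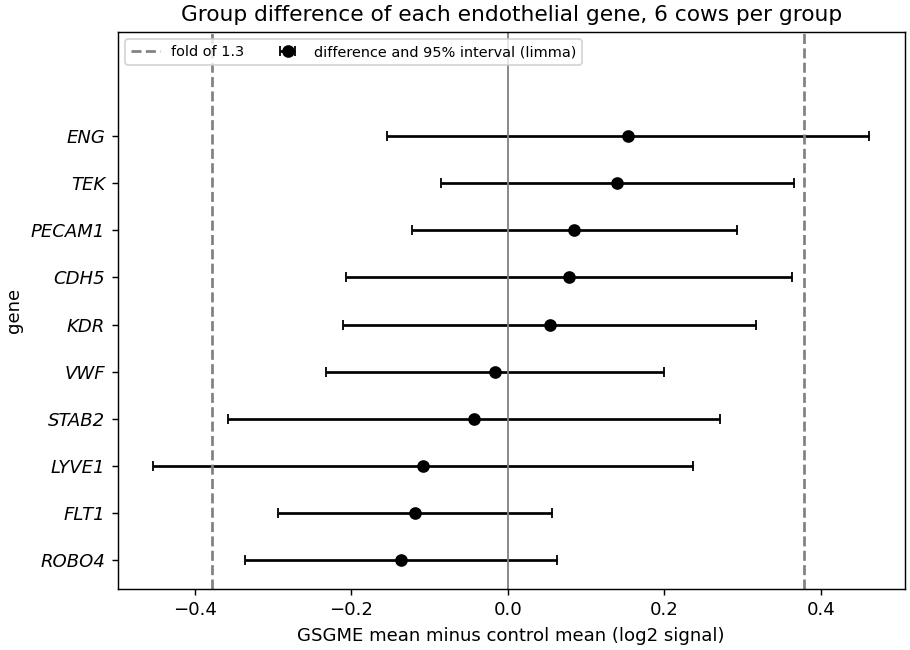
GSGME mean minus control mean (log2 signal, horizontal axis) of each endothelial gene, with the 95% confidence interval from limma and dashed lines at an FC of 1.3 in either direction. The points run from 0.15 for ENG to -0.14 for ROBO4, every interval crosses 0, and only those of ENG and LYVE1 cross a dashed line.

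Among the receptors for vascular endothelial growth factors, FLT1 (VEGFR1) binds its ligands tightly and signals weakly, and KDR (VEGFR2) carries most of the signal for growth and permeability. FLT1 had a lowest, median and highest log2 signal of 7.63, 7.92 and 7.94 in GSGME cows, against 7.82, 7.97 and 8.16 in control cows. The control mean lay above all 6 GSGME cows, and 5 of these lay within the range of the control cows. The means were 7.86 ± 0.12 in GSGME cows and 7.98 ± 0.11 in control cows (SD, n = 6 each), a difference of -0.12 (SE 0.08, 95% interval -0.29 to 0.06) or an FC of -1.09. The exact permutation test over the 924 assignments of the cows to groups, two-sided and here as elsewhere unadjusted, gave p = 0.115 for FLT1, the lowest of the 10 genes. The smallest p this test can give is 0.00216.

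KDR values ran from 9.07 over a median of 9.39 to 9.76 in GSGME cows, and from 9.13 over 9.33 to 9.63 in control cows. The GSGME group held both the highest and the lowest cow of the 12. Mean KDR signals were 9.37 ± 0.25 in GSGME cows and 9.32 ± 0.18 in control cows (SD, n = 6 each), which differed by 0.05 (SE 0.12, 95% interval -0.21 to 0.32, adjusted p = 0.945 in limma). The sign of this difference rested on Liver_GSGME_821, since it was -0.02 without that cow.

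Of 8 measured ligands of these receptors and of TEK, 0 were higher and 0 lower at the criterion. Their median difference was -0.07, against -0.01 over all transcripts, and the difference was positive in 1 of the 8. VEGFA, the main ligand of KDR, had a log2 signal of 11.02 ± 0.13 in GSGME cows and 11.21 ± 0.15 in control cows (SD, n = 6 each). Its difference of -0.19 (FC -1.14) had an exact permutation p of 0.0411, unadjusted, and an adjusted p of 0.830 in limma. In 4 of 6 GSGME cows VEGFA lay below the lowest control cow. Liver_control_1017, at 11.5, stood above the other control cows, and without it the difference was -0.13. PGF, a ligand of FLT1, averaged 5.33 ± 0.10 in GSGME cows and 5.55 ± 0.16 in control cows (SD, n = 6 each), a difference of -0.22 with an exact permutation p of 0.0216 and an adjusted p of 0.830 in limma. PGF lay above the background in 2 of 12 arrays, so that this difference lies in the range where the arrays measure little. VEGFB and VEGFC, above the background in all arrays, differed by -0.06 and -0.08. VEGFD differed by -0.04 and was below the background in every array.

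In the list of 17 co-receptors and partners of the VEGF and TIE2 receptors, 0 were higher, 0 were lower and the median difference was 0.01. GRB14, an adapter that binds activated receptor tyrosine kinases and is also known from the insulin receptor, averaged 9.01 ± 0.24 in GSGME cows and 9.28 ± 0.18 in control cows (SD, n = 6 each), with a difference of -0.26 and an exact permutation p of 0.0714. The neuropilins, which bind VEGF together with KDR, had differences of 0.08 for NRP1 and 0.10 for NRP2. SEMA3E, a ligand of the receptor PLXND1, was below the background in all arrays.

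TEK, the receptor through which angiopoietins keep vessels quiescent, had a lowest, median and highest log2 signal of 7.95, 7.97 and 8.25 in GSGME cows, against 7.57, 7.90 and 8.16 in control cows. The GSGME cows lay close together apart from Liver_GSGME_821 at 8.25, whereas the control cows were spread. All 6 GSGME cows lay above the control mean, and the control cows fell into 3 within the range of the GSGME cows and 3 below it. TEK averaged 8.02 ± 0.12 in GSGME cows and 7.88 ± 0.22 in control cows (SD, n = 6 each), a difference of 0.14 (SE 0.11, 95% interval -0.09 to 0.37) or an FC of 1.10. The exact permutation p for TEK was 0.214, and the adjusted p was 0.847 in limma. The difference lay between 0.08 and 0.20 when each cow was left out in turn, lowest without Liver_control_1041, the cow with the lowest TEK signal.

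The angiopoietins ANGPT1, ANGPT2 and ANGPT4 were below the background in all 12 arrays, with differences of 0.01, -0.01 and -0.25. TIE1, the receptor that pairs with TEK, averaged 6.08 ± 0.34 in GSGME cows and 5.99 ± 0.17 in control cows (SD, n = 6 each). Its difference of 0.10 became -0.02 without Liver_GSGME_821.

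ENG, the co-receptor of the bone morphogenetic protein 9 pathway, had a lowest, median and highest log2 signal of 9.55, 9.75 and 10.45 in GSGME cows, against 9.46, 9.68 and 9.89 in control cows. Liver_GSGME_821 was the highest of the 12, and 3 GSGME cows lay above the control mean. The group means were 9.85 ± 0.34 in GSGME cows and 9.69 ± 0.16 in control cows (SD, n = 6 each), a difference of 0.15 (SE 0.14, 95% interval -0.15 to 0.46) and an FC of 1.11. The exact permutation p was 0.383, and without Liver_GSGME_821 the difference was 0.03.

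Of 18 genes of the BMP9 and endoglin pathway, 0 were higher and 0 lower, and the median difference was 0.03. GDF2, which encodes BMP9, averaged 7.47 ± 0.12 in GSGME cows and 7.42 ± 0.12 in control cows (SD, n = 6 each), and ACVRL1, the receptor that signals with endoglin, averaged 5.93 ± 0.27 in GSGME cows and 6.04 ± 0.28 in control cows (SD, n = 6 each). Neither difference was larger than the spread between cows. The lowest limma p of this list belonged to SMAD1, which carries the signal to the nucleus, and ID3, a target of the pathway. SMAD1 differed by -0.14 and ID3 by 0.12 (adjusted p = 0.847 for each in limma).

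ROBO4 had a lowest, median and highest log2 signal of 5.76, 5.91 and 6.0 in GSGME cows, against 5.67, 6.10 and 6.20 in control cows. The control cows lay between 6.06 and 6.20 apart from Liver_control_819, which was the lowest of all 12 cows. All 6 GSGME cows thus lay below 5 of the 6 control cows. The means of 5.91 ± 0.08 in GSGME cows and 6.05 ± 0.19 in control cows (SD, n = 6 each) differed by -0.14 (SE 0.09, 95% interval -0.34 to 0.06), an FC of -1.10 with an exact permutation p of 0.147 and an adjusted p of 0.843 in limma. Without Liver_control_819 the difference was -0.21, which did not pass the criterion either.

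Of 10 genes of the SLIT ligands, the other ROBO receptors and their partners, 0 were higher and 0 lower, with a median difference of 0.00. Only 5 of the 10 lay above the background in all arrays. ROBO3, a receptor known from neurons, averaged 5.50 ± 0.19 in GSGME cows and 5.73 ± 0.19 in control cows (SD, n = 6 each), and SLIT1, a secreted ligand, averaged 5.80 ± 0.17 in GSGME cows and 6.04 ± 0.21 in control cows (SD, n = 6 each). Both lay near the background, ROBO3 above it in 5 of 12 arrays.

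CDH5, the cadherin of endothelial adherens junctions, had a lowest, median and highest log2 signal of 8.65, 8.79 and 9.44 in GSGME cows, against 8.51, 8.86 and 8.96 in control cows. Liver_GSGME_821, at 9.44, lay well above the next cow at 8.98. Means were 8.89 ± 0.30 in GSGME cows and 8.81 ± 0.17 in control cows (SD, n = 6 each). The difference of 0.08 (SE 0.13, 95% interval -0.21 to 0.36, exact permutation p = 0.656) was -0.03 without Liver_GSGME_821. PECAM1, an adhesion and signalling molecule at the contacts of endothelial cells that platelets and leukocytes also carry, had a lowest, median and highest log2 signal of 7.88, 8.14 and 8.31 in GSGME cows, against 7.77, 8.06 and 8.25 in control cows. Here 4 GSGME cows lay above the control mean, and the ranges nearly coincided. PECAM1 averaged 8.12 ± 0.15 in GSGME cows and 8.03 ± 0.16 in control cows (SD, n = 6 each), a difference of 0.09 (SE 0.10, 95% interval -0.12 to 0.29, exact permutation p = 0.379).

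Of 16 junction partners of VE-cadherin and PECAM1, 0 were higher and 0 lower, with a median difference of 0.00. CTNNA1, the alpha-catenin that links cadherins to actin, averaged 9.31 ± 0.02 in GSGME cows and 9.16 ± 0.17 in control cows (SD, n = 6 each). All 6 GSGME cows lay above the control mean, and the exact permutation p was 0.0325, with an adjusted p of 0.830 in limma. PTPN6, a phosphatase that binds PECAM1 and is abundant in blood cells, averaged 8.20 ± 0.31 in GSGME cows and 7.91 ± 0.19 in control cows (SD, n = 6 each), a difference of 0.29 and an FC of 1.22.

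VWF had a lowest, median and highest log2 signal of 6.12, 6.39 and 6.55 in GSGME cows, against 6.16, 6.47 and 6.54 in control cows. The ranges were nearly the same. With means of 6.37 ± 0.17 in GSGME cows and 6.39 ± 0.17 in control cows (SD, n = 6 each), VWF had the smallest difference of the 10 genes, -0.02 (SE 0.10, 95% interval -0.23 to 0.20, exact permutation p = 0.859). Its sign was not stable, since it turned positive with cyclic loess between arrays, with array weights and without any of 5 single cows. Of 12 VWF partners and genes of vascular haemostasis, 0 were higher and 0 lower, and the median difference was -0.08. Only 5 of the 12 lay above the background in all arrays. F8, the clotting factor that circulates bound to VWF and is made by sinusoidal cells, averaged 7.68 ± 0.34 in GSGME cows and 7.80 ± 0.37 in control cows (SD, n = 6 each). The platelet receptor subunits GP9 and GP1BB differed by -0.20 and -0.21 (exact permutation p = 0.141 and 0.184), and GP9 lay above the background in 8 of 12 arrays.

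LYVE1, a hyaluronan receptor, had a lowest, median and highest log2 signal of 9.09, 9.35 and 9.94 in GSGME cows, against 9.30, 9.59 and 9.86 in control cows. The GSGME cows fell into a pair above 9.8, Liver_GSGME_821 and Liver_GSGME_741, and 4 cows below 9.4. LYVE1 averaged 9.47 ± 0.37 in GSGME cows and 9.58 ± 0.23 in control cows (SD, n = 6 each). The difference of -0.11 (SE 0.16, 95% interval -0.45 to 0.24, exact permutation p = 0.541) came with the widest interval of the 10 genes. STAB2, the scavenger receptor by which sinusoidal cells clear hyaluronan, had a lowest, median and highest log2 signal of 9.26, 9.70 and 10.08 in GSGME cows, against 9.46, 9.71 and 10.13 in control cows. The medians differed by less than the spread in either group. STAB2 averaged 9.70 ± 0.29 in GSGME cows and 9.75 ± 0.26 in control cows (SD, n = 6 each), a difference of -0.04 (SE 0.15, 95% interval -0.36 to 0.27, exact permutation p = 0.797), which turned positive without Liver_GSGME_1124 or without Liver_control_1031.

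Of 14 measured genes of hyaluronan synthesis, uptake and breakdown, 0 were higher and 0 lower, with a median difference of -0.01. Only 6 of the 14 lay above the background in all arrays. STAB1, the scavenger receptor related to STAB2, averaged 7.67 ± 0.22 in GSGME cows and 7.67 ± 0.13 in control cows (SD, n = 6 each). HYAL2, a hyaluronidase, averaged 6.17 ± 0.19 in GSGME cows and 6.30 ± 0.14 in control cows (SD, n = 6 each). CEMIP, a hyaluronan-binding protein needed for its breakdown in skin fibroblasts, was below the background in all arrays.

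Single cows stood out across the 10 genes. The mean log2 signal over the 10 genes ran from 8.11 to 8.64 in GSGME cows, against 8.20 to 8.42 in control cows, and averaged 8.35 in both groups. In Liver_GSGME_821, with the highest mean of 8.64, 9 of the 10 genes lay above their own mean over all cows, and TEK, KDR, CDH5 and ENG were the highest of the 12. In Liver_GSGME_741, with a mean of 8.51, all 10 lay above their own mean, and PECAM1, VWF and LYVE1 were the highest of the 12. Liver_GSGME_1124, at 8.11, was at the other end, with 0 of 10 genes above its own mean (TEK lay at its mean of 7.95) and the lowest FLT1, KDR, LYVE1 and STAB2 signals of all cows. The highest and the lowest cow thus both belonged to the GSGME group.

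The other 3 GSGME cows had means between 8.28 and 8.30. Among control cows, Liver_control_1041 had the lowest mean, 8.20, with 1 of 10 genes above its own mean. Liver_control_1017 and Liver_control_819 had the highest mean of that group, 8.42, and Liver_control_819 combined the highest FLT1 with the lowest ROBO4 signal of all 12 cows. Array medians did not order the cows in this way, as Liver_GSGME_821 had an array median of 6.08 and Liver_GSGME_1124 of 6.07.

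**Figure D3:**
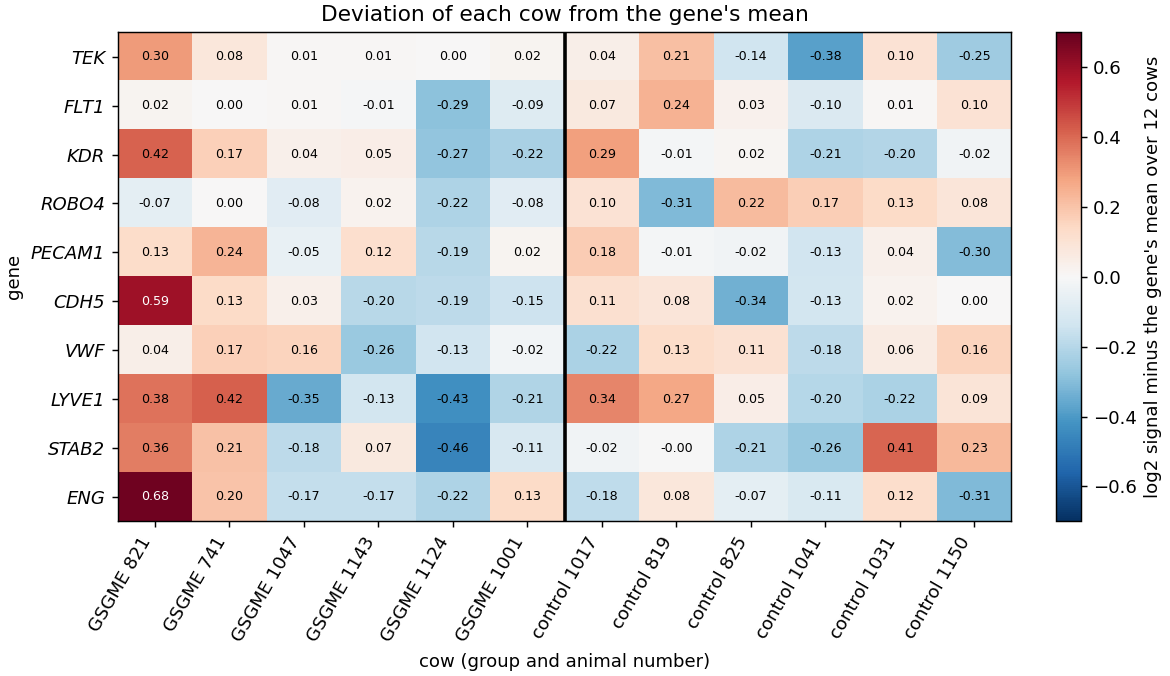
Deviation of each cow's log2 signal from the gene's mean over 12 cows (colour), with genes in rows and cows in columns, GSGME cows on the left and control cows on the right. Liver_GSGME_821 and Liver_GSGME_741 lie above the mean in 9 and 10 genes, and Liver_GSGME_1124 lies above it in 0, with TEK at its mean.

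Across the 12 cows the endothelial genes tended to vary together. Of the 45 pairs among the 10 genes, 40 had a positive Pearson correlation, with a median r of 0.40. Over all pairs of transcripts on the array the median r was 0.001, and 50.11% were positive. No single pair passed a p of 0.05 after Benjamini-Hochberg adjustment over the 45 pairs with Pearson's r or with Spearman's rho (permutation tests with 100000 resamples, two-sided), while 11 pairs had an unadjusted Pearson p under 0.05. All pairs rest on the same 12 livers and are not independent of each other.

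The highest correlation was that of KDR and LYVE1, with r = 0.79 (permutation p = 0.00222, adjusted p = 0.0999) and rho = 0.73 (permutation p = 0.00957, adjusted p = 0.163). Without the cows farthest from the median of KDR, Liver_GSGME_821 and Liver_control_1017, r was 0.69. Within GSGME cows it was 0.82, and within control cows 0.89. CDH5 and ENG followed with r = 0.72 and rho = 0.40 (permutation p = 0.0196 and 0.198, adjusted p = 0.165 and 0.372). That relation rested on single cows, since r was 0.31 without Liver_GSGME_821 and Liver_control_825. TEK and ENG had r = 0.68 and rho = 0.66 (permutation p = 0.0180 and 0.0216, adjusted p = 0.165 and 0.194), and r was 0.64 without Liver_control_1041 and Liver_GSGME_821.

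LYVE1, KDR, STAB2 and CDH5 followed the other genes most closely, with r between 0.72 and 0.77 against the mean of the other 9. ENG, PECAM1, TEK and FLT1 had r between 0.53 and 0.64. VWF followed them less, with r = 0.26, and ROBO4 had r = -0.13 over all cows, with 0.56 within GSGME cows and -0.66 within control cows. The lowest pair of all was TEK and ROBO4, with r = -0.58 and rho = -0.40 (permutation p = 0.0480 and 0.197, adjusted p = 0.196 and 0.372), and r was -0.54 without Liver_control_1041 and Liver_GSGME_821.

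Within GSGME cows the median r of the pairs was 0.73 and 45 of 45 were positive, against 0.18 and 27 of 45 within control cows, a difference that was not tested. Over all pairs of transcripts the median r was 0.001 within GSGME cows and 0.005 within control cows. The GSGME group also held the cows with the highest and lowest endothelial means, Liver_GSGME_821 and Liver_GSGME_1124. Without these, the median r over the other 10 cows was 0.24, with 32 of 45 pairs positive, and 0 pairs passed after adjustment. Within the 4 other GSGME cows, too few for a correlation of their own, the median r was 0.53 and 38 of 45 pairs were positive.

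**Figure D4:**
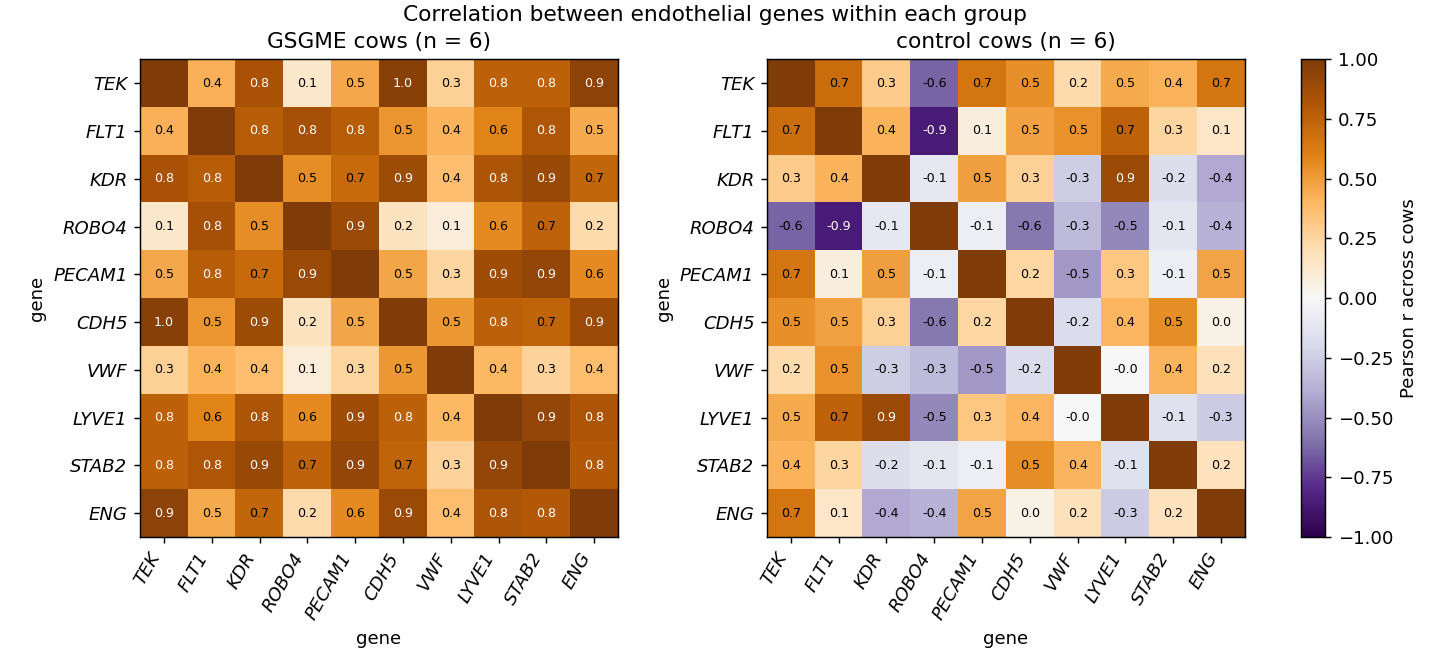
Pearson r across cows (colour) between each pair of the 10 endothelial genes, within 6 GSGME cows (left) and within 6 control cows (right). All 45 pairs are positive within GSGME cows, against 27 within control cows.

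Other endothelial genes were described from lists of their own. Of 29 measured pan-endothelial genes outside the 10, 0 were higher and 0 lower, with a median difference of 0.00, and the mean over the list ran from 6.79 to 7.14 in GSGME cows and from 6.80 to 7.08 in control cows. Across the 12 cows this list mean had r = 0.84 and rho = 0.87 with the mean of the standardised values of the 10 genes, and 24 of the 29 genes had a positive r. Liver_GSGME_821 was the highest and Liver_GSGME_1124 the lowest in this list too, and r was 0.72 without them. RAMP2, which makes the calcitonin receptor-like receptor respond to adrenomedullin, averaged 7.56 ± 0.16 in GSGME cows and 7.38 ± 0.11 in control cows (SD, n = 6 each, exact permutation p = 0.0476, adjusted p = 0.830 in limma). SOX17, a transcription factor of arterial endothelium, differed by -0.24 and lay above the background in 8 of 12 arrays.

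Of 17 other genes of the liver sinusoidal endothelium, 0 were higher and 0 lower, and 3 of the 17 differences were positive, with a median of -0.06. The largest difference, 0.45 or an FC of 1.37, was positive and belonged to CD36. This gene averaged 8.65 ± 0.47 in GSGME cows and 8.20 ± 0.46 in control cows (SD, n = 6 each). In all 6 GSGME cows CD36 lay above the control mean, but it did not pass the criterion (exact permutation p = 0.126, adjusted p = 0.830 in limma). RAMP3, a partner of the same receptor as RAMP2, had the lowest limma p of this list. It averaged 8.52 ± 0.13 in GSGME cows and 8.85 ± 0.23 in control cows (SD, n = 6 each), a difference of -0.34 and an FC of -1.26 (exact permutation p = 0.0195, adjusted p = 0.830 in limma). In 3 GSGME cows RAMP3 lay below the lowest control cow, and of the 12 cows left out singly, it passed the criterion without Liver_control_1041 or Liver_control_1150. BMP2, which sinusoidal cells release to induce hepcidin in hepatocytes, averaged 5.80 ± 0.13 in GSGME cows and 6.06 ± 0.24 in control cows (SD, n = 6 each, exact permutation p = 0.0498, adjusted p = 0.830 in limma). Its signal was near the background, above it in 11 of 12 arrays. CLEC4G, a lectin of sinusoidal cells, averaged 8.43 ± 0.25 in GSGME cows and 8.48 ± 0.15 in control cows (SD, n = 6 each). The mean of this list had r = 0.79 and rho = 0.80 with the standardised mean of the 10 genes, and r was 0.69 without Liver_GSGME_821 and Liver_GSGME_1124. Here Liver_control_1017 was the highest cow at 7.60, followed by Liver_control_819 at 7.53 and Liver_GSGME_821 at 7.52.

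Among 10359 transcripts with a single symbol and a mean above the median transcript, the 8 whose values over the 12 cows most resembled the standardised mean of the 10 genes were RALB, PEA15, LST1, LY9, DPT, SSH1, GNAI2 and OIT3. Their r lay between 0.88 for OIT3 and 0.94 for RALB, against a median of 0.02 and a 95th percentile of 0.59 over all candidates. They were picked as the highest of many, so that their r is a description. OIT3, with a log2 signal of 9.74 ± 0.49 in GSGME cows and 9.57 ± 0.24 in control cows (SD, n = 6 each), also stands in the sinusoidal list. LST1 and LY9 are known from leukocytes, DPT encodes the matrix protein dermatopontin, and GNAI2 encodes a G protein subunit. None of the 8 differed between the groups at the criterion.

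Markers of some other cell types moved with the endothelial mean as well. All 11 Kupffer cell and macrophage markers had a positive r with it, and their list mean had r = 0.83 and rho = 0.78 over the 12 cows, with r = 0.74 without Liver_GSGME_821 and Liver_GSGME_1124. This list mean ran from 8.61 to 9.45 in GSGME cows and from 8.50 to 9.18 in control cows, and 0 of its 11 genes were higher or lower. All 11 stellate cell and fibroblast markers also had a positive r, and their list mean had r = 0.63 (rho = 0.48), which rested on Liver_GSGME_821 and Liver_GSGME_1124, since r was 0.12 without them. Liver_GSGME_821 had a stellate list mean of 7.65, against 7.00 in the next cow, and was the highest of the 12 cows in 7 of the 11 markers. The bile duct list did not move with the endothelial mean as a whole, since 2 of its 6 markers had a positive r. Its list mean had r = 0.61 (rho = 0.53) because of SPP1, osteopontin, which was at 9.82 in Liver_GSGME_821, against 5.28 in the next cow. Without SPP1, a choice made after seeing the data, the bile duct mean had r = 0.12 (rho = 0.17), and Liver_GSGME_821 was at 6.16, against 6.43 in the highest cow. Stellate list means ran from 6.70 to 7.65 in GSGME cows and from 6.71 to 7.00 in control cows, and bile duct list means from 5.61 to 6.77 in GSGME cows and from 5.76 to 6.03 in control cows. The biopsy of Liver_GSGME_821 thus stood apart in connective tissue markers and SPP1, and it also had the highest mean of the 10 endothelial genes. The part of the other cell types in the endothelial values was not tested.

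Hepatocyte markers did not rise with the endothelial genes, and their r was mostly negative. Their list mean ran from 12.18 to 12.34 in GSGME cows and from 12.08 to 12.27 in control cows. It had r = -0.31 and rho = -0.36 against the endothelial mean, and r was -0.13 without Liver_GSGME_821 and Liver_GSGME_1124. Of the 11 markers, 3 had a positive r and 0 were higher or lower. Without APOA1, the most variable of them and a choice made after seeing the data, the list mean had r = -0.61 (rho = -0.52). The 4 markers of lymphatic endothelium, which also carries LYVE1, had r = 0.16 (rho = 0.37), a median difference of -0.04 and list means from 7.36 to 7.56 in GSGME cows and from 7.28 to 7.62 in control cows. PDPN, the defining membrane protein of lymphatic vessels, was below the background in all arrays, while PROX1, which hepatocytes also express, averaged 11.06 ± 0.13 in GSGME cows and 11.14 ± 0.15 in control cows (SD, n = 6 each). T and B cell markers had r = 0.56 but rho = 0.24, and Liver_GSGME_821 was the highest cow in this list. List means were 5.85 to 6.40 in GSGME cows and 5.78 to 6.01 in control cows, and 1 of 8 markers, CD3D, passed the criterion (adjusted p = 0.830 in limma), which it did not when any of 6 single cows was left out. CD3D averaged 5.82 ± 0.40 in GSGME cows and 5.39 ± 0.34 in control cows (SD, n = 6 each) and lay above the background of 5.62 in 6 of 12 arrays.

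**Figure D5:**
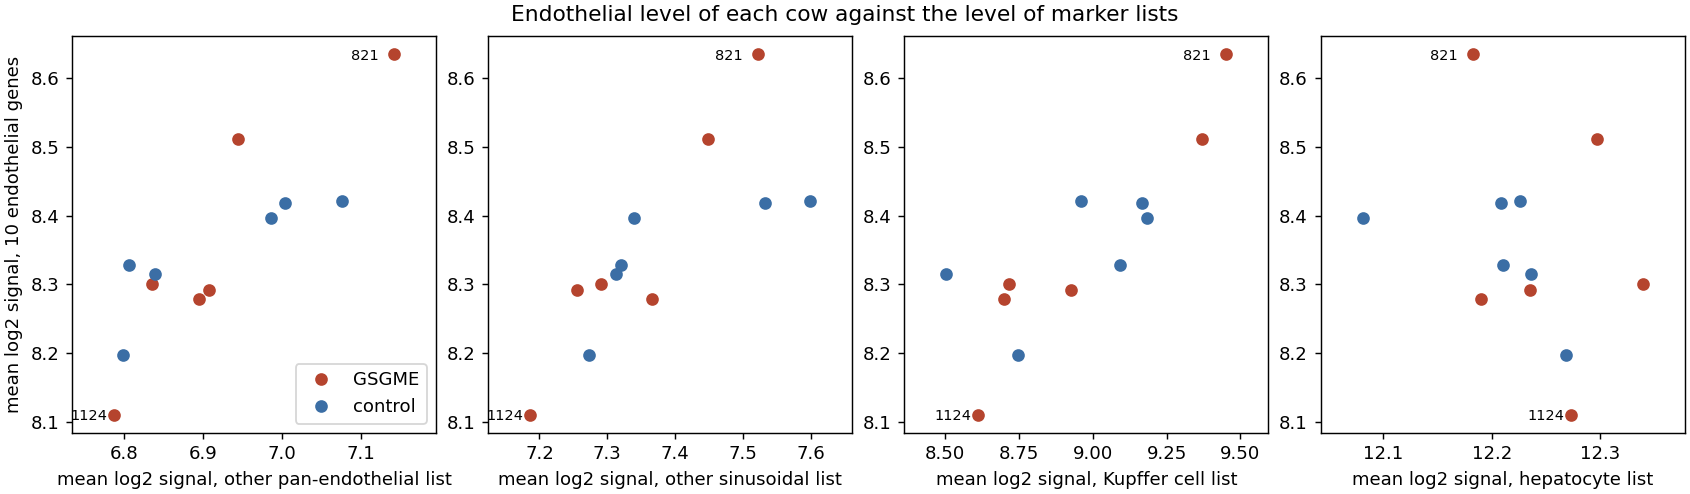
Mean log2 signal over the 10 endothelial genes (vertical axis) against the mean log2 signal of the lists of other pan-endothelial, other sinusoidal, Kupffer cell and hepatocyte genes (horizontal axes), with 1 point per cow in the colour of its group. The endothelial mean rises with the first 3 lists (r = 0.84, 0.79 and 0.83), and its r with the hepatocyte list is negative (-0.31). Liver_GSGME_821 and Liver_GSGME_1124 are its ends. These r were taken with the mean of the standardised values of the 10 genes in place of the plotted mean.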

How the data were processed

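Background correction, normalization across arrays and probe summary were done by the authors with RMA in Affymetrix Expression Console, in a version not given in the sources used here. What they deposited are log2 signals with 2 decimals for 26773 transcripts in 6 GSGME and 6 control cows, and their precision is limited by the number of arrays. Groups came from the sample labels. The platform's annotation gave 1 symbol to 18457 transcripts, several to 688 and none to 7628, and 17996 of the first kind matched a RefSeq gene table with 0 symbols changed. No sequences or coordinates were used here.

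All transcripts were fitted in limma 3.58.1 (lmFit and eBayes, two-sided, R 4.3.3) with Benjamini-Hochberg adjustment over all of them. A negative fold change is the negative inverse of the ratio. For named genes the exact permutation test ran over cows, and p-values weigh a group difference against the spread between these cows. Correlations with list means are descriptions with no test. In them the endothelial mean is the mean of the standardised values of the 10 genes, which had r = 0.996 with their mean log2 signal. Simulated data served to test the limma step. The other steps ran in Python 3.11.15 (pandas 2.3.3, scipy 1.17.1, numpy 2.4.6) and matplotlib 3.10.9 drew the figures.

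The 10 genes and the lists were chosen with earlier results of these data known. A gene was taken at its single-symbol row with the highest mean. Named were the 10 genes, every measured VEGF and angiopoietin ligand, the 2 genes of each other list with the lowest limma p and the 8 transcripts most like the 10 genes. Genes picked for a low limma p tend to have a low exact permutation p by that choice. Of the 69 named genes, 9 had an exact permutation p under 0.05. GDF2, ACVRL1, NRP1, NRP2, TIE1, STAB1, CLEC4G and F8 were named after their values were seen. SPP1, CD36 and APOA1 were also mentioned after their values were seen, and are not among the 69 named genes. Alternatives were the methods' t-test (unpaired, equal variance), eBayes with trend and robust estimation, a filter keeping transcripts above the median transcript, cyclic loess between arrays, array weights, no fold threshold, the mean of a gene's rows and leaving out each cow. Leaving out Liver_GSGME_821 and Liver_GSGME_1124 together was chosen after seeing the data, as was taking lists without their most variable gene. No batch is labelled.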

Additional observations from a re-analysis of the deposited data

Results flagged for a closer look

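In 12 of 138 groups of 6 cows, the highest or lowest cow stood apart from the rest by Dixon's criterion. The groups were formed by the 69 named genes in each feeding group. In a single group chance gives about 1 in 20. All groups rest on the same 12 cows and on genes partly chosen by their values, so no excess can be read from the count. Of the 10 endothelial genes, TEK was flagged in GSGME cows (Liver_GSGME_821 at 8.25, next cow 8.03), FLT1 in GSGME cows (Liver_GSGME_1124 at 7.63, next cow 7.83) and ROBO4 in control cows (Liver_control_819 at 5.67, next cow 6.06).

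Among their ligands and partners, Liver_GSGME_1001 stood apart in PGF at 5.53 and in ANGPT4 at 4.86, Liver_GSGME_821 in NRP2 at 8.36, and Liver_control_1017 in VEGFA at 11.5 and in ID3 at 7.85. Of the genes of other lists, Liver_GSGME_1001 stood apart in CFTR, a chloride channel of bile ducts, at 6.72, Liver_control_1017 in CXCR2, a neutrophil receptor, at 4.13, Liver_GSGME_1047 in SLC4A1, the anion exchanger of red cells, at 4.60, and Liver_control_1041 in LST1 at 6.04. PGF, ANGPT4, CXCR2 and SLC4A1 lay below the background in these cows.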

How the results depend on the processing

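No paired analysis was possible because the groups share no cow and the animal numbers pair none. Of the 10 endothelial genes, 0 were higher and 0 lower under every alternative run, with 9 tested where only transcripts above the median transcript were kept, which left out ROBO4. Of all transcripts, 322 were higher and 167 lower, against 375 and 112 with cyclic loess, 226 and 109 in the methods' t-test, 142 and 61 among transcripts above the median transcript, and 718 and 849 with no fold threshold. Leaving out each cow gave 271 to 468 higher and 139 to 289 lower, the last without Liver_control_819. The number of correlated pairs was 0 to 1, with 1 pair without Liver_GSGME_1047, and 0 in the main analysis.

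Signs of uncalled differences changed as follows, and the cause was not tested. With cyclic loess VWF was 0.018, VEGFD 0.0099 and ANGPT2 0.056. With array weights VWF was 0.011, VEGFD 0.042 and ANGPT1 -0.0065. Without Liver_GSGME_821 and Liver_GSGME_1124, chosen after seeing the data, CDH5 was -0.0042 and VWF 0.0025. Leaving out each cow gave KDR -0.024 to 0.12, CDH5 -0.033 to 0.13, VWF -0.063 to 0.034, STAB2 -0.12 to 0.045, ANGPT1 -0.040 to 0.064, ANGPT2 -0.097 to 0.13, VEGFD -0.11 to 0.028, NRP1 -0.0077 to 0.17, NRP2 -0.044 to 0.16, TIE1 -0.018 to 0.17, STAB1 -0.069 to 0.063, CLEC4G -0.12 to 0.0013, ALAS2 -0.016 to 0.16, DPT -0.18 to 0.20, GNAI2 -0.053 to 0.14, PEA15 -0.12 to 0.0090, RALB -0.0097 to 0.12 and SSH1 -0.054 to 0.050. With the fold threshold of 1.3 kept, calls changed for 4 named genes. CD3D was lost in the methods' t-test (0.43) and without 6 cows in turn (range 0.30 to 0.51). RAMP3 passed without Liver_control_1041 or Liver_control_1150 (range -0.39 to -0.28), LRAT without Liver_control_819 (0.46) and TIMD4 without Liver_control_1150 (-0.45). With no fold threshold, PGF, GRB14, BMP2, RAMP3 and CD5L were called as well, at an unadjusted limma p under 0.05. The limma intervals, and not the absence of calls, bound the differences that 6 cows per group leave possible.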

Other observations

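Some blood and dividing cell lists were not set beside the endothelial genes above. Of 8 markers of dividing cells, 5 were higher in cows fed GSGME, against 1.2% of all transcripts, with a median difference of 0.80. The list had been known from these samples, so that its count and direction are not independent evidence. Of the 8 markers, 2 lay above the background in all arrays, and these were not among the 5. MKI67, a marker of cycling cells, averaged 7.12 ± 0.75 in GSGME cows and 5.92 ± 0.70 in control cows (SD, n = 6 each, adjusted p = 0.830 in limma), and CDK1, the mitotic kinase, averaged 5.66 ± 0.78 in GSGME cows and 4.22 ± 0.76 in control cows (SD, n = 6 each, adjusted p = 0.830 in limma), with all 6 control cows below the background of 5.62, so that no fold change is given. Across the 12 cows the mean of this list had r = -0.41 and rho = -0.52 with the endothelial mean, and 0 of the 8 genes had a positive r.

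Of 7 platelet markers 1 lay above the background in all arrays, and 0 were higher or lower. Of 6 neutrophil markers 0 were higher or lower, with a median difference of -0.22. MPO, an enzyme of neutrophil granules, averaged 6.14 ± 0.09 in GSGME cows and 6.30 ± 0.13 in control cows (SD, n = 6 each, exact permutation p = 0.0303, adjusted p = 0.830 in limma). Of 5 red cell markers 0 were higher or lower, with a median difference of 0.04. The list means had r = 0.25 (rho = 0.31) for platelet, 0.56 (rho = 0.71) for neutrophil and 0.48 (rho = 0.52) for red cell markers with the endothelial mean. Without Liver_GSGME_821 and Liver_GSGME_1124, r was -0.10 for platelet, 0.54 for neutrophil and 0.72 for red cell markers. The red cell list mean was 6.43 in Liver_GSGME_741, against 5.82 in the next cow. Of the 5 red cell markers 3 had a positive r over the 12 cows, with a median r of 0.03. Above the background in all arrays were 2 of the 6 neutrophil and 1 of the 5 red cell markers.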
